A study of Rattus norvegicus with 24 samples.

Results

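The matrix metalloproteases (MMPs), the ADAM and ADAMTS proteases and the tissue inhibitors of metalloproteases (TIMPs) were examined in the abdominal mammary gland of peripubertal rats treated with 17β-estradiol, the main ovarian estrogen. Members were the probe sets annotated to exactly 1 gene whose symbol is Mmp, Timp, Adam or Adamts followed by a number. The rule found 74 of 31042 probe sets tested and 51 of 14217 genes, with 17 Mmp, 4 Timp, 18 Adam and 12 Adamts genes. More than 1 probe set represented 15 of these genes.

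Sprague-Dawley rats of both sexes carried subcutaneous mini-osmotic pumps from postnatal day 21, at weaning, to postnatal day 33, when gland pairs were frozen. The pumps delivered 0, 0.1, 1 or 10 µg of 17β-estradiol per kg body weight per day, and sex and dose gave 8 groups of 3 Affymetrix arrays each. All animals, the controls at 0 included, carried a pump, and the labels name no genotype other than the strain. Nothing in the labels ties each array to its own animal, and the p-values rest on the spread between arrays, which may be technical.

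The deposited values were signed log values, taken here as log2, and each probe set was centred within each sex. A value of 0 is therefore close to the middle of the 12 arrays of that sex, and the table keeps neither an absolute level nor a difference in level between males and females. Genes cannot be ranked by level, the sex labels and the tissue cannot be checked against marker levels, and folds hold only if the base is 2. Differences between doses within a sex are kept. They were fitted with limma over all probe sets, and a change was called at a Benjamini-Hochberg adjusted p below 0.05. Differences are given on the log2 scale ± SE, with 95% intervals where stated. The 3 doses of a sex were set against the same 3 control arrays.

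MMPs are zinc proteases that cleave collagens, laminins, proteoglycans and one another's proforms. They open a path for mammary ducts growing into the fat pad, and TIMPs block their active site. ADAMTS proteases are secreted and act mainly on proteoglycans and procollagens. ADAMs sit in the cell membrane, where those with an active protease site cut off the outer part of membrane proteins, and ADAM17 frees amphiregulin, the EGF receptor ligand needed for ductal growth at puberty.

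The promoters of the 6 measured genes of the Mmp cluster are shown because Mmp3 rose in males while its measured neighbours did not pass the test, and that of Mmp11 because it rose with Mmp3 from elsewhere in the genome. Sequences are from RefSeq on GRCr8, plus strand, 5′ to 3′, and end at the base before the annotated transcript start. Mmp11 lies at chr20:12730034-12730283 and Mmp3 at chr8:12925031-12925280, with 250 bases each. Mmp13 (chr8:12782729-12782828), Mmp12 (chr8:12866552-12866651), Mmp10 (chr8:12974607-12974706), Mmp8 (chr8:13008790-13008889) and Mmp7 (chr8:13132943-13133042) are given with 100 bases each. Capitals mark TGANTCA, the AP-1 motif, and TATAAA, the TATA box, on either strand.
Mmp11: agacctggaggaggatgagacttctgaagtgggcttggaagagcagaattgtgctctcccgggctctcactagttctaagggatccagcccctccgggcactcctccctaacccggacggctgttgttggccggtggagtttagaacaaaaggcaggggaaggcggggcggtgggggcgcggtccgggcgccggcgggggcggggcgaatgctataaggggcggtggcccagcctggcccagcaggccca
Mmp3: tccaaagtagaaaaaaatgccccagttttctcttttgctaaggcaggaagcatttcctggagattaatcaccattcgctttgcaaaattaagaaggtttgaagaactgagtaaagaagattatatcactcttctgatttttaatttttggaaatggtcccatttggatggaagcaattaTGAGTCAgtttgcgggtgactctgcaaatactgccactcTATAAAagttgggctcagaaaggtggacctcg
Mmp13: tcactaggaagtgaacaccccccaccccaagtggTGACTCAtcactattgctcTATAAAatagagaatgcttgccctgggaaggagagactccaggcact
Mmp12: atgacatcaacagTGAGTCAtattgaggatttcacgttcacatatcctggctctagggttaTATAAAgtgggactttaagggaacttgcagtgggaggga
Mmp10: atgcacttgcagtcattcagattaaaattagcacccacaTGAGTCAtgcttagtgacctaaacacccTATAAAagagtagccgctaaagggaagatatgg
Mmp8: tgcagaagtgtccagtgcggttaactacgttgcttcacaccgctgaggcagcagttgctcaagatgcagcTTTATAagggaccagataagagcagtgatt
Mmp7: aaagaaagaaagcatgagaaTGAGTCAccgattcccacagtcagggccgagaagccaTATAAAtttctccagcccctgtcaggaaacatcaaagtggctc

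The Mmp3 promoter held the AP-1 motif from -71 to -65 and the TATA box from -32 to -27, and Mmp13, Mmp12, Mmp10 and Mmp7 each held both motifs in the bases shown. Mmp8 held TATAAA on the other strand and no AP-1 motif, and the 250 bases of Mmp11 held neither string. Both held TATAAG on the strand shown, which differs from TATAAA in its last base and was not counted. A promoter of 300 bases, from 250 before the start to 50 after it, was listed for 30 of the 51 genes. Of these 30, 6 (20%) held TGANTCA, against 7.4% of all 27457 listed promoters, and the 6 genes were Mmp3, Mmp7, Mmp10, Mmp12, Mmp13 and Adam19. TATAAA was in 9 of 30 (30%) against 14.3% of all. The full palindromic estrogen response element, TGACC preceded by its reverse complement and 3 bases of any kind, was in 0 of the 30, and in 6 of all 27457 promoters (0.0219%). Its single arm TGACC was in 9 of 30 (30%) against 40.2% of all. Both strands were searched, no motif counted here contains another except that the palindrome includes its arm, and a match is a description of the letters only.

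In males at 10 µg/kg/day, 22 of the 74 probe sets passed the test, 29.7% against 17.5% of all probe sets tested. Of these, 12 were higher (16.2% against 7.81% of all) and 10 were lower (13.5% against 9.64% of all). They represented 12 genes that rose and 7 that fell. The median difference of the members was -0.08 and that of all probe sets -0.005. All 3 treated arrays lay above all 3 controls for 17 members (23% against 18.2% of all) and below them for 19 (25.7% against 18.9%).

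In males at 1 µg/kg/day, 5 members passed (6.76% against 3.63% of all), 2 higher (1.53% of all) and 3 lower (2.1% of all). Groups did not overlap for 8 members that were higher (10.8% against 12% of all) and 21 that were lower (28.4% against 14.3%). At 0.1, none of the 74 passed in limma, where 0% of all probe sets did, and 12 members had an unadjusted p below 0.05 (16.2% against 11.9% of all). At that dose 5 members lay wholly above the controls (6.76% against 8.32% of all) and 17 wholly below them (23% against 10.8%).

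In females, 2 members passed at 10, both lower (2.7% against 1.05% of all lower, 0.812% higher and 1.86% in either direction). None passed at 0.1 or at 1 in limma, where 0% of all probe sets passed, and 13 and 5 members had an unadjusted p below 0.05 (17.6% and 6.76%, against 9.93% and 2.73% of all).

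Other features of the glands moved with dose in the same arrays, and their part in the protease changes was not tested. Fewer cells of a type and less RNA per cell cannot be told apart in whole gland. In males at 10, 22 of 23 adipocyte probe sets fell, with a median of -1.18. Array means of their centred values, taken over genes, ran from 0.43 to 0.56 at 0 and from -0.89 to -0.66 at 10. Luminal epithelial markers rose in 7 of 24 probe sets and basal markers in 4 of 17 (1 fell). Endothelial markers fell in 9 of 15 probe sets (1 rose) and fibroblast markers in 6 of 17 (1 rose). Keratinocyte markers rose in 6 of 11 probe sets. Of all probe sets, 7.81% were higher and 9.64% lower in males at 10. Mast cell markers fell in 8 of 13 probe sets (1 rose), with a median of -0.84, and in females at 10 in 5 of 13, with a median of -0.66. In males at 1, where 5 members passed, 15 of 23 adipocyte probe sets fell (array means -0.33 to -0.26) and 13 of 24 luminal probe sets rose (array means -0.97 to -0.005 at 0 and 0.29 to 0.53 at 1). The difference between the 3′ and 5′ beta-actin control probe sets, often read as a sign of RNA quality, was -0.56, -0.06 and -0.28 in males at 0. It was -0.36, -0.50 and -0.47 at 0.1, then -0.24, -0.36 and -0.15 at 1, and -0.02, 0.16 and 0.05 at 10. The top-dose arrays had the highest male values, so this covariate and the top dose cannot be fully told apart. With the beta-actin difference as a covariate, 4 members passed in males at 10, namely Adamts19, Adamts8, Mmp17 and Mmp28. Hepatocyte transcripts averaged above 1 on 4 arrays, of which 2 were male controls. Without these arrays, male control replicate 1 was the lone remaining male control and was assumed to vary like the other groups. It was 1 of the 2 arrays with the widest spread over probe sets (SD 0.395). Its beta-actin difference, -0.56, was the lowest of the 24 arrays. Every male difference from 0 given without the hepatocyte arrays rests on that control.

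**Figure D1:**
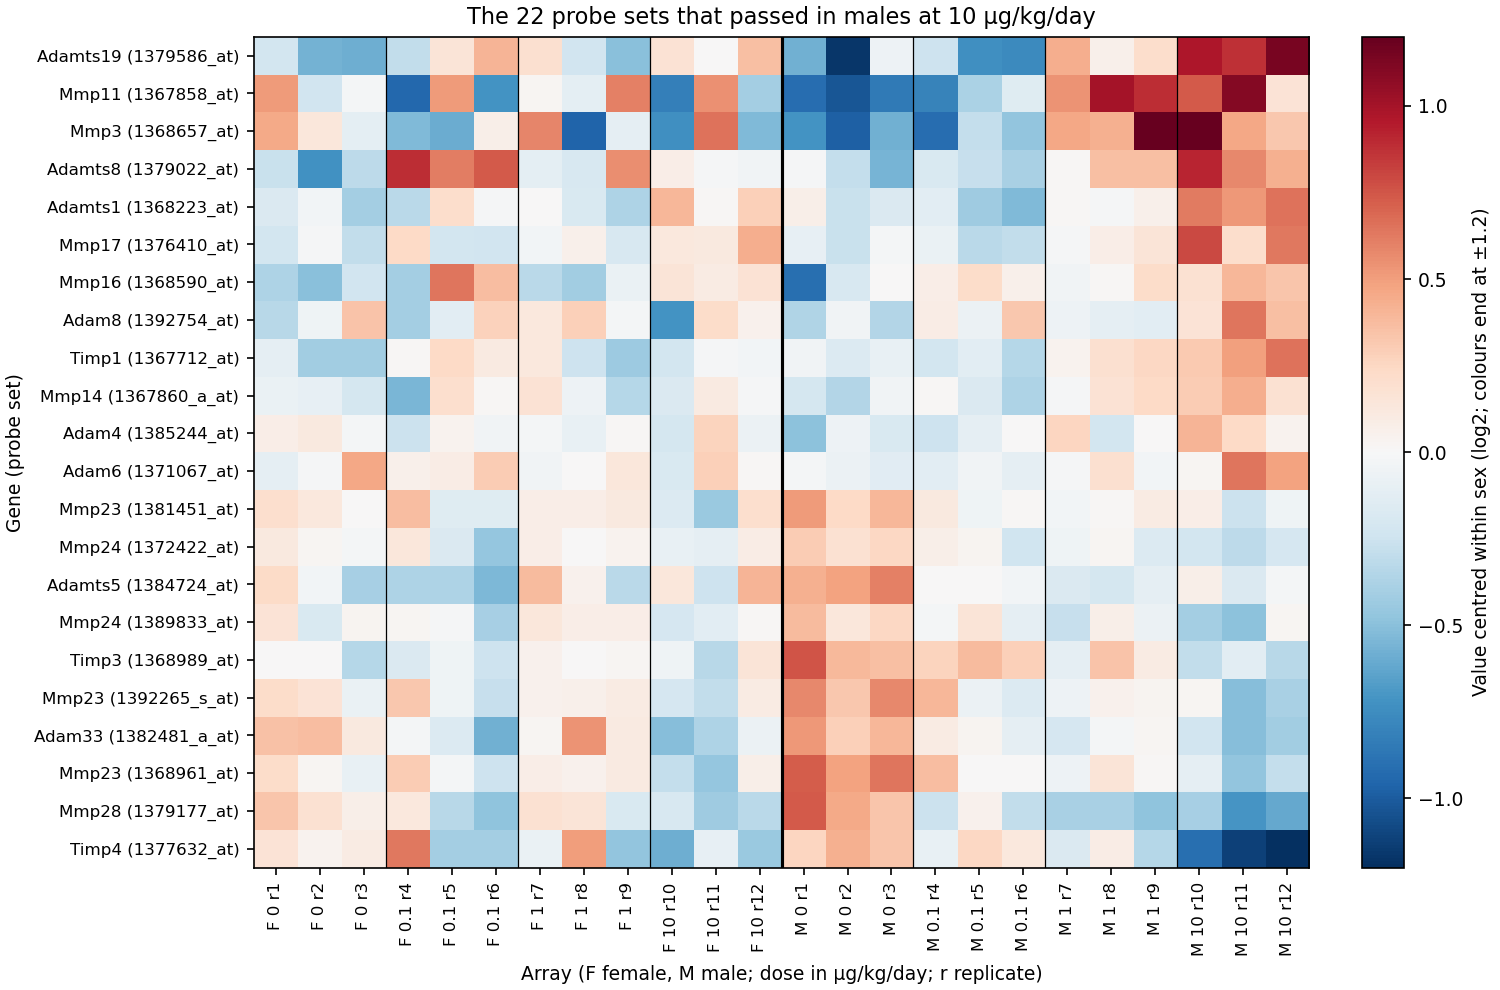
Heat map of the 22 probe sets that passed in males at 10 µg/kg/day, ordered from the largest rise to the largest fall, with 1 column for each of the 24 arrays. Colour is the log2 value centred within sex, red above and blue below 0, and stops at 1.2 either side. In males Adamts19 runs from -1.17 to -0.06 at 0 and from 0.88 to 1.14 at 10, while Timp4 runs from 0.26 to 0.43 at 0 and from -1.24 to -0.90 at 10.

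Among the stromelysins, 2 of 3 genes rose in males and both did so at 1 as well as at 10. These genes had 3 probe sets, and 1.53% of all probe sets were higher in males at 1 and 7.81% at 10. Mmp11 (stromelysin-3, probe set 1367858_at), a secreted protease that stromal cells make near growing or invading epithelium and that is activated inside the cell by furin, was higher at both doses. In males Mmp11 read -0.91, -1.03 and -0.85 at 0, then -0.80, -0.38 and -0.15 at 0.1, then 0.54, 1.00 and 0.89 at 1, and 0.74, 1.10 and 0.16 at 10. Every array at 1 or 10 lay above every array at 0 or 0.1. The difference from 0 was 1.74 ± 0.36 at 1, a 3.34-fold rise (95% interval 1.99 to 5.62, adjusted p = 0.0137), and 1.59 ± 0.36 at 10, a 3.01-fold rise (1.79 to 5.07, adjusted p = 0.0050).

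From 1 to 10 µg/kg/day male Mmp11 differed by -0.15, with an interval of -0.90 to 0.60. The call at 10 held without any single array (adjusted p up to 0.0355) and was lost with the beta-actin covariate (1.37, adjusted p = 0.163), with hepatocyte and muscle covariates (1.47, adjusted p = 0.0533) and without the hepatocyte arrays (1.57, adjusted p = 0.0684). The call at 1 was lost without male control replicate 1 or male replicate 9 at 1 (adjusted p up to 0.0703) and without the hepatocyte arrays (1.86, adjusted p = 0.104), and the difference stayed between 1.65 and 1.88 over all single arrays left out.

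Female Mmp11 showed no such order. Values were 0.51, -0.23 and -0.02 at 0, then -0.94, 0.51 and -0.72 at 0.1, then 0.02, -0.12 and 0.60 at 1, and -0.82, 0.55 and -0.41 at 10, and the groups overlapped throughout. The difference at 10 was -0.31 ± 0.36, with an interval of -1.06 to 0.44. The male difference from 0 exceeded the female one by 1.91 ± 0.51 at 10 (adjusted p = 0.0678) and by 1.66 ± 0.51 at 1 (adjusted p = 0.353), and neither passed.

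Mmp3 (stromelysin-1, probe set 1368657_at) digests laminin and proteoglycans, activates other MMPs and is known for its part in mammary branching. Its male values were -0.72, -0.98 and -0.58 at 0, then -0.91, -0.29 and -0.47 at 0.1, then 0.46, 0.43 and 1.26 at 1, and 1.23, 0.46 and 0.32 at 10. As for Mmp11, the arrays at the upper 2 doses lay above all others. The rise was 1.47 ± 0.38 at 1 (2.78-fold, adjusted p = 0.0368) and 1.43 ± 0.38 at 10 (2.69-fold, interval 1.56 to 4.65, adjusted p = 0.0136), and the change from 1 to 10 was -0.05 (-0.83 to 0.74). Without male replicate 10 at 10 the top-dose rise did not pass (adjusted p = 0.0639), nor did it after quantile normalization (1.25), with the beta-actin covariate (1.57) or without the hepatocyte arrays (1.39), with adjusted p up to 0.143. Without male control replicate 1 or 2, or without any of the 3 arrays at 1, the rise at 1 did not pass (adjusted p up to 0.185). It was also lost after quantile normalization (1.79), without the widest 2 arrays (1.49) and without the hepatocyte arrays (1.56), with adjusted p up to 0.193. In females Mmp3 was -0.36 ± 0.38 at 10, and the difference between the sexes, 1.79 ± 0.53, did not pass (adjusted p = 0.0929).

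Mmp3 sits in the Mmp gene cluster, where the order along GRCr8 is Mmp13, Mmp12, Mmp1b, Mmp3, Mmp1, Mmp10, Mmp8, Mmp27, Mmp20 and Mmp7. Of these, 6 were measured here. Mmp10, the closest relative of Mmp3, differed by 0.13 ± 0.13 in males at 10 (-0.15 to 0.41). The collagenases Mmp8 and Mmp13 differed by 0.02 ± 0.13 and 0.14 ± 0.17, and the matrilysin Mmp7, a protease of glandular epithelium, by 0.38 ± 0.22. Mmp12, the macrophage metalloelastase, differed by 0.91 ± 0.53, an interval of -0.19 to 2.02 that holds the Mmp3 rise as well as 0. None of these 5 neighbours passed in limma in males at 1 or 10.

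**Figure D2:**
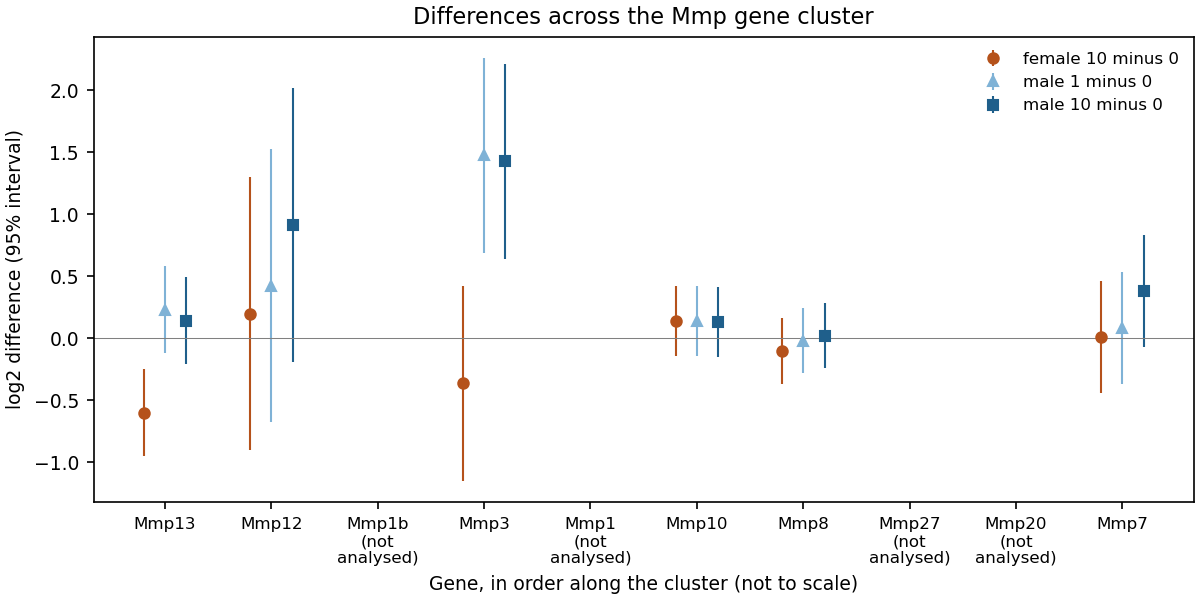
Log2 difference from 0 (y axis, with 95% intervals) for the genes of the Mmp cluster in their order along GRCr8 (x axis, not to scale), in females at 10 and in males at 1 and 10 µg/kg/day. Mmp3 in males stands at 1.47 and 1.43 with intervals above 0. The other male intervals all include 0, and that of Mmp12 reaches 2.02.

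The gelatinases did not pass in any comparison. Mmp2, which degrades basement membrane collagen, differed in males at 10 by -0.01 ± 0.08 and 0.08 ± 0.13 on its 2 probe sets. Mmp9, the gelatinase of neutrophils and macrophages, differed by 0.26 ± 0.30 and 0.73 ± 0.40. The Mmp2 intervals ended at 0.15 and 0.35, whereas that of Mmp9 reached 1.56.

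Membrane-type MMPs, which stay on the cell surface, split by gene in males at 10, with 3 of 5 genes higher and 1 lower. By probe set, 3 of 8 were higher and 2 lower, where 7.81% and 9.64% of all probe sets were. Mmp17, held by a lipid anchor, read -0.10, -0.27 and -0.02 at 0, then -0.01, 0.08 and 0.15 at 1, and 0.79, 0.21 and 0.63 at 10. The groups at 0 and 10 did not overlap, and the rise was 0.68 ± 0.15 (adjusted p = 0.0036), which did not pass without the hepatocyte arrays (0.65, adjusted p = 0.0691). The change from 1 to 10, 0.47 (0.17 to 0.78), did not pass (adjusted p = 0.200). Mmp14 (MT1-MMP), the main cell-surface collagenase and activator of Mmp2, rose by 0.50 ± 0.16 on 1 probe set (adjusted p = 0.0356) and was 0.46 ± 0.18 on the other (adjusted p = 0.0850).

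Mmp16, close kin of Mmp14, read -0.90, -0.19 and 0.00 in males at 0 and 0.18, 0.40 and 0.33 at 10, a rise of 0.67 ± 0.21 (adjusted p = 0.0363). Its lowest control stood apart, and without that array, male control replicate 1, the call was lost. The call was also lost without male replicates 11 or 12 at 10, with differences from 0.40 to 0.85 over all single arrays left out. Of 10 other settings 4 ended it (the beta-actin covariate, hepatocyte and muscle covariates, quantile normalization and a fit of the 2 groups alone), and the Mmp16 difference was 0.095 with the beta-actin covariate (adjusted p = 0.884). Without the hepatocyte arrays the Mmp16 difference was larger than 0.67. Male control replicate 1, the lowest control, was then the only male control left, so this value rests on that array. Mmp14 lost its call without male control replicate 1 or 2 or any of the 3 arrays at 10 (0.43 to 0.58 over all arrays left out). The Mmp14 call was lost under 5 of 10 other settings as well, down to 0.29 with the beta-actin covariate (adjusted p = 0.552). Mmp24 (MT5-MMP), best known from neurons, fell by 0.49 ± 0.11 and 0.55 ± 0.14 on 2 of 3 probe sets, and the third differed by -0.15 ± 0.13. The second of these calls was lost without male control replicate 1 or male replicate 11 at 10 (adjusted p up to 0.0603). With the beta-actin covariate the Mmp24 values were -0.29 and -0.34 and neither passed, and the calls were lost under 3 and 2 of the 10 settings. Mmp15 did not pass (-0.29 ± 0.12).

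The largest falls among the MMPs were in Mmp28 and Mmp23. Mmp28 (epilysin, probe set 1379177_at), a protease of epithelium made in skin and healing wounds, read 0.74, 0.45 and 0.33 in males at 0, then -0.26, 0.05 and -0.30 at 0.1, then -0.39, -0.39 and -0.48 at 1, and -0.40, -0.71 and -0.61 at 10. All 9 treated arrays lay below the 3 controls. Mmp28 fell by 0.93 ± 0.15 at 1 (adjusted p = 0.0035) and by 1.08 ± 0.15 at 10 (2.11-fold lower, interval 1.71 to 2.61, adjusted p = 8.7e-05). At 0.1 it was -0.68 ± 0.15 (adjusted p = 0.316). Both calls held without any single array and under every alternative run.

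In females Mmp28 was 0.33, 0.18 and 0.07 at 0 and -0.19, -0.43 and -0.32 at 10, with no overlap, but the difference of -0.51 ± 0.15 did not pass (adjusted p = 0.0876). The male and female differences at 1 were apart by -0.79 ± 0.21, the smallest p among the members for a difference between sexes at that dose, which did not pass (adjusted p = 0.301).

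Mmp23, a membrane protease best known from reproductive tissue, fell on all 3 probe sets in males at 10, by 0.91 ± 0.15, 0.79 ± 0.16 and 0.46 ± 0.14. On probe set 1368961_at the male values were 0.73, 0.48 and 0.64 at 0, then 0.37, 0.00 and 0.00 at 0.1, then -0.06, 0.15 and 0.01 at 1, and -0.11, -0.47 and -0.29 at 10. Every treated array lay below every control. The fall at 1, by 0.59 ± 0.15 on that probe set (adjusted p = 0.0341), was lost when any 1 of the 6 arrays compared was left out (adjusted p up to 0.166). The top-dose fall of 0.46, on 1381451_at, was lost without either of 2 controls or of 2 top-dose arrays and under 5 of 10 other settings, down to -0.17 with the beta-actin covariate (adjusted p = 0.704). With that covariate the other 2 Mmp23 probe sets, at -0.65 and -0.54, did not pass either (adjusted p up to 0.209), and the latter was also lost with hepatocyte and muscle covariates (-0.51, adjusted p = 0.0650). Mmp19, a widely expressed secreted MMP, did not pass in males at 10 (-0.32 ± 0.14).

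**Figure D3:**
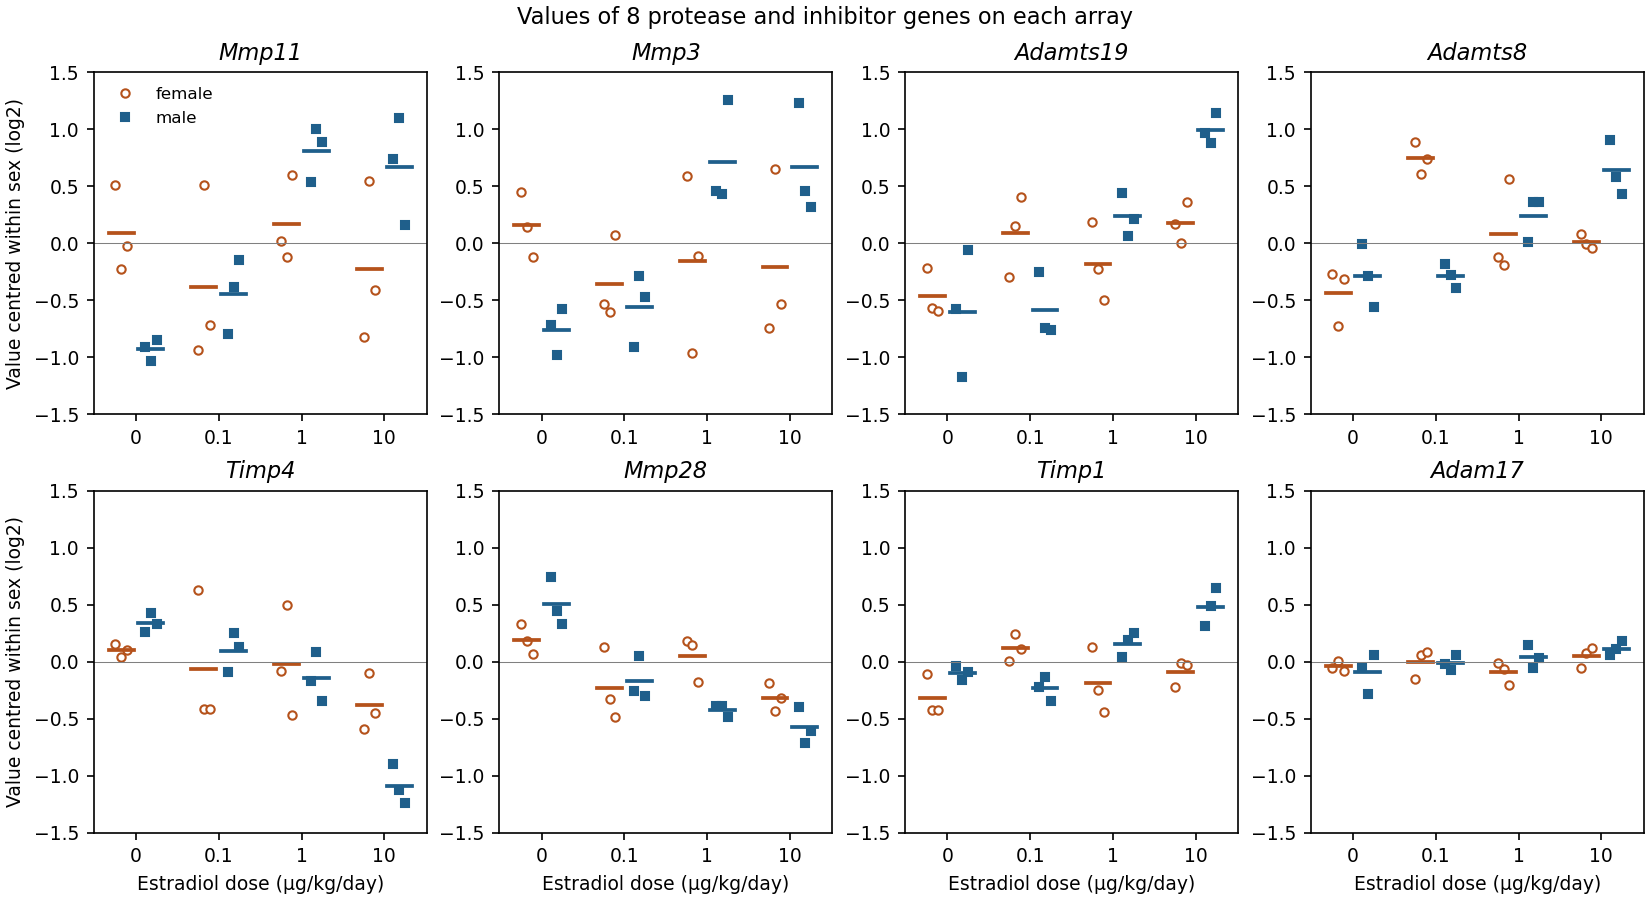
Value on each array (y axis, log2, centred within sex) against estradiol dose (x axis, µg/kg/day, evenly spaced) for 8 genes, with open circles for females, filled squares for males and bars for group means of 3 arrays. Male Mmp11 and Mmp3 step up between 0.1 and 1, Adamts19 is highest at 10 (0.88 to 1.14), and Timp4 is lowest there (-1.24 to -0.90). Female Adamts8 is highest at 0.1 (0.61 to 0.89), and male Adam17 spans -0.28 to 0.18 over all doses.

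The 4 inhibitors moved in different directions in males at 10, where 1 rose, 2 fell and 1 did not pass. By probe set, 1 of 8 was higher and 2 were lower, where 7.81% and 9.64% of all probe sets were. Timp4 (probe set 1377632_at), a secreted inhibitor abundant in heart and fat, read 0.26, 0.43 and 0.33 at 0, then -0.09, 0.25 and 0.13 at 0.1, then -0.17, 0.09 and -0.34 at 1, and -0.90, -1.12 and -1.24 at 10. The top-dose arrays lay below every other male array. Timp4 fell by 1.43 ± 0.24 (2.69-fold lower, interval 1.90 to 3.80, adjusted p = 0.0005). The step from 1 to 10 was -0.94 (-1.44 to -0.45, adjusted p = 0.104). The call at 10 held without any single array and was lost with the beta-actin covariate (-1.18, adjusted p = 0.0611). Female Timp4 was -0.48 ± 0.24 at 10, and the sexes differed by -0.94 ± 0.34 (adjusted p = 0.153).

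Timp1 (probe set 1367712_at), a soluble inhibitor with growth factor activity, rose. It read -0.04, -0.16 and -0.09 at 0, then -0.22, -0.13 and -0.34 at 0.1, then 0.04, 0.19 and 0.25 at 1, and 0.31, 0.49 and 0.65 at 10. Its top-dose arrays lay above every other male array, and the rise was 0.58 ± 0.13 (1.49-fold, interval 1.24 to 1.79, adjusted p = 0.0039). With the beta-actin covariate it was 0.56 (adjusted p = 0.107), and without the hepatocyte arrays 0.52 (adjusted p = 0.0694).

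Timp3, the matrix-bound inhibitor that also blocks ADAM17, gave unequal results over its 4 probe sets. On 1368989_at the male values were 0.75, 0.39 and 0.36 at 0, then 0.27, 0.38 and 0.29 at 0.1, then -0.11, 0.34 and 0.10 at 1, and -0.30, -0.13 and -0.33 at 10, a fall of 0.76 ± 0.13 (adjusted p = 0.0007). Female values were 0.00, 0.00 and -0.34 at 0 and -0.05, -0.33 and 0.15 at 10, a difference of 0.03 ± 0.13 with overlapping groups. The other 3 probe sets differed in males by -0.36 ± 0.14, -0.16 ± 0.12 and -0.04 ± 0.15 and did not pass. With the probe sets averaged per gene, Timp3 did not pass in males (-0.33), nor did 1368989_at with the beta-actin covariate (-0.57, adjusted p = 0.0902).

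The difference between the sexes on 1368989_at, -0.79 ± 0.19 (-1.18 to -0.40), was the only member difference between sexes that passed at 10 (adjusted p = 0.0414), 1.35% of members against 1.28% of all probe sets (0.525% higher and 0.754% lower in males). It passed in 11 of 24 fits that left out 1 array, with values from -0.92 to -0.67. Under 4 of 10 other settings it was kept, and a fit with the replicate number as a block was among those that ended it. The 3 other probe sets differed between sexes by -0.39, -0.17 and -0.03. Timp2, which inhibits Mmp2 and also helps Mmp14 to activate it, had the next smallest p. On 1367823_at it was higher in females (0.40 ± 0.15) and lower in males (-0.43 ± 0.15, adjusted p = 0.0517) at 10. The sexes were apart by -0.83 ± 0.21 (adjusted p = 0.0568), and neither value nor their difference passed. The other Timp2 probe set, 1386940_at, moved less and did not pass. It read 0.02, -0.09 and -0.15 in females at 0 and -0.03, 0.02 and 0.17 at 10. In males it read 0.11, 0.10 and 0.20 at 0 and 0.01, -0.14 and 0.01 at 10. No member differed between the sexes at 0.1 or 1 in limma, where 0% and 0.0483% of all probe sets did. At an unadjusted p below 0.05 there were 6 and 12 members, 8.11% and 16.2% against 7.3% and 9.85% of all.

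**Figure D4:**
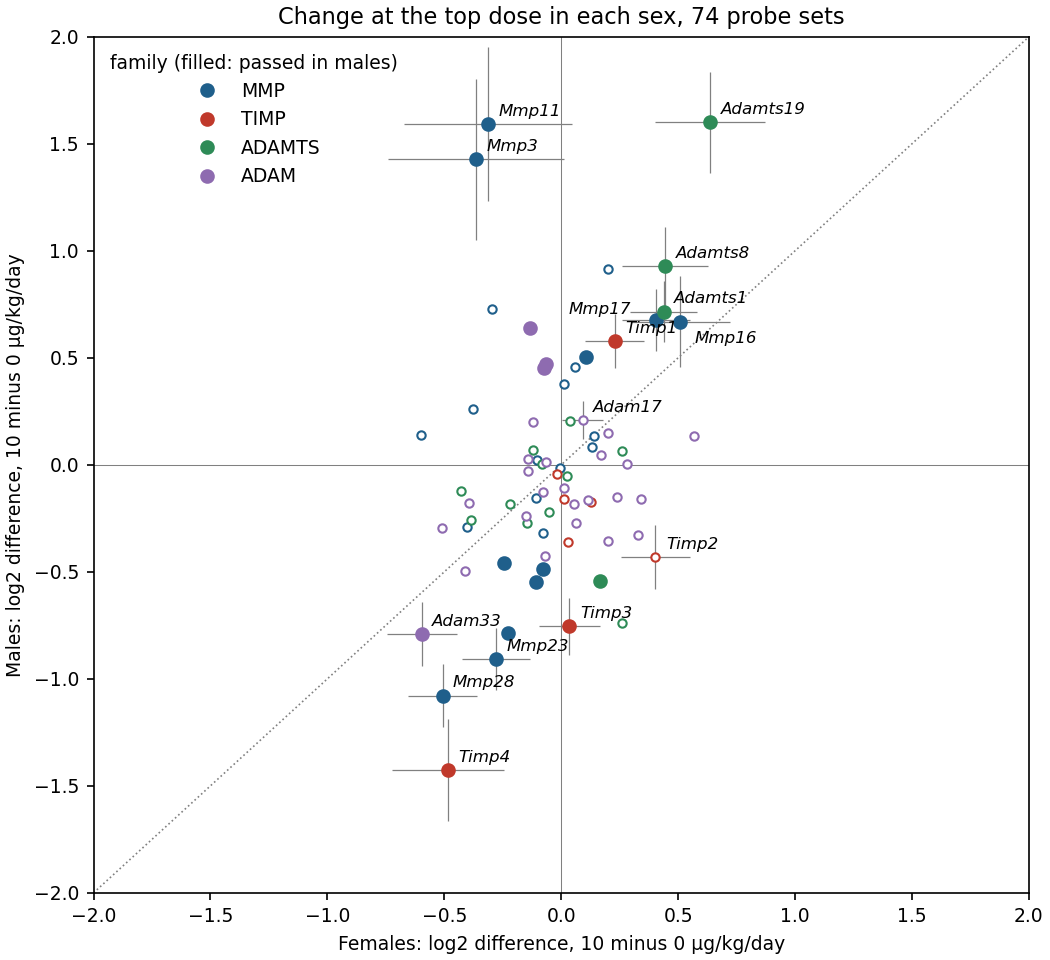
Log2 difference at 10 minus 0 µg/kg/day in females (x axis) and males (y axis) for the 74 probe sets. Filled points passed in males, colours mark families, bars on the labelled genes are 1 SE, and the dotted line marks equal differences. Adamts19 (0.64 in females, 1.60 in males) lies above the line on the positive side of both axes, Mmp11 (-0.31, 1.59) and Mmp3 (-0.36, 1.43) lie above 0 on the male axis alone, and Timp3 (0.03, -0.76) lies below 0 on the male axis.

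ADAMTS genes gave 3 rises and 1 fall among 12 genes in males at 10. By probe set, 3 of 15 were higher and 1 was lower, where 7.81% and 9.64% of all probe sets were. Adamts19 (probe set 1379586_at), a family member whose substrates are poorly known, read -0.58, -1.17 and -0.06 at 0, then -0.25, -0.74 and -0.76 at 0.1, then 0.44, 0.06 and 0.21 at 1, and 0.97, 0.88 and 1.14 at 10. Arrays at 1 and at 10 lay above all at 0 and 0.1, and those at 10 above those at 1. The rise at 10 was 1.60 ± 0.24 (3.03-fold, interval 2.15 to 4.27, adjusted p = 0.0002), and it held without any single array and under every alternative run. At 1 the difference was 0.85 ± 0.24 (adjusted p = 0.0533), and the step from 1 to 10, 0.75 (0.26 to 1.25), did not pass (adjusted p = 0.216). In females Adamts19 was 0.64 ± 0.24 at 10 (adjusted p = 0.212).

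Adamts8 (probe set 1379022_at), which cleaves aggrecan and was first described as an inhibitor of vessel growth, followed a different course in each sex. In males it read -0.01, -0.29 and -0.56 at 0, then -0.18, -0.28 and -0.39 at 0.1, then 0.01, 0.36 and 0.36 at 1, and 0.91, 0.58 and 0.43 at 10. The top-dose arrays lay above all others, with a rise of 0.93 ± 0.18 (1.90-fold, interval 1.46 to 2.48, adjusted p = 0.0020) that did not pass without the hepatocyte arrays (0.64, adjusted p = 0.0938). At 1 the difference was 0.53 ± 0.18 (adjusted p = 0.115).

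In females Adamts8 read -0.27, -0.73 and -0.31 at 0, then 0.89, 0.61 and 0.74 at 0.1, then -0.12, -0.19 and 0.56 at 1, and 0.08, -0.01 and -0.04 at 10. The 3 arrays at the lowest dose were the highest of the 12. The difference of 1.18 ± 0.18 at 0.1 was the member with the smallest p in females at that dose and did not pass (adjusted p = 0.0652). It passed with array weights (1.16, adjusted p = 0.0006), after quantile normalization (1.37, adjusted p = 0.0484) and without the widest 2 arrays (1.11, adjusted p = 0.0250). The male value at 0.1 was 0.00 ± 0.18, and the sexes were apart by -1.18 ± 0.26 at that dose (adjusted p = 0.621). At 10 they were apart by 0.48 ± 0.26 (adjusted p = 0.318).

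Adamts1, a versican-cleaving protease needed for ovulation, was among the rises seen in males at 10 and not called at 1. It read 0.07, -0.27 and -0.17 at 0, then 0.01, -0.01 and 0.06 at 1, and 0.62, 0.52 and 0.65 at 10. The rise was 0.72 ± 0.14 (1.64-fold, adjusted p = 0.0022), which was lost with the beta-actin covariate (0.70, adjusted p = 0.0755) and without the hepatocyte arrays (0.52, adjusted p = 0.121), and the step from 1 to 10 was 0.58 ± 0.14 (0.28 to 0.88, adjusted p = 0.0973). None of the 74 members passed between 1 and 10 in limma in males or in females, where 0.387% and 0.267% of all probe sets did. At an unadjusted p below 0.05 there were 13 and 7 members, 17.6% and 9.46% against 9.41% and 10.1% of all.

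Adamts5, a main aggrecanase, fell on 1 of 2 probe sets. On 1384724_at it read 0.43, 0.48 and 0.60 in males at 0, then 0.00, 0.00 and -0.03 at 0.1, then -0.17, -0.21 and -0.11 at 1, and 0.07, -0.17 and -0.02 at 10. All 9 treated arrays lay below the controls. Adamts5 fell by 0.66 ± 0.17 at 1 (adjusted p = 0.0341) and by 0.54 ± 0.17 at 10 (adjusted p = 0.0304), and at 0.1 it was -0.51 ± 0.17 (adjusted p = 0.330). The other probe set differed by -0.05 ± 0.14 at 10. The call at 1 was lost without any 1 of the 6 arrays compared (adjusted p up to 0.109), and that at 10 without any of the controls or without male replicates 11 or 12 at 10 (adjusted p up to 0.122). Under 5 of 10 other settings Adamts5 lost the call at 1 (-0.70 to -0.47) and under 6 that at 10 (-0.58 to -0.30). The remaining 8 ADAMTS genes did not pass at any dose, and Adamts16 had the widest of their male differences at 10 (-0.74 ± 0.30, adjusted p = 0.0925).

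Among the ADAMs, Adam33 fell at the top dose in both sexes. It belongs to the ADAMs with an active site and is best known from mesenchymal cells of the airway. Male values were 0.52, 0.29 and 0.40 at 0, then 0.10, 0.03 and -0.11 at 0.1, then -0.20, -0.02 and 0.02 at 1, and -0.23, -0.51 and -0.42 at 10. Female values were 0.35, 0.37 and 0.12 at 0, then -0.02, -0.16 and -0.58 at 0.1, then 0.02, 0.54 and 0.11 at 1, and -0.51, -0.37 and -0.07 at 10. In both sexes the arrays at 10 lay below all controls. Adam33 fell by 0.79 ± 0.15 in males (adjusted p = 0.0014) and by 0.60 ± 0.15 in females (adjusted p = 0.0466). The female call was kept in 6 of 24 fits that left out 1 array (-0.72 to -0.50, adjusted p up to 0.229), and the male call in all 24. The female call was lost under 3 of 10 other settings, and the male call with the beta-actin covariate (-0.65, adjusted p = 0.105).

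Adam19 (meltrin beta), which sheds neuregulin, also fell in females at 10, on 1 of its 4 probe sets. On 1389151_at female values were 0.33, 0.35 and 0.42 at 0, then -0.22, -0.21 and 0.08 at 0.1, then 0.26, 0.44 and 0.08 at 1, and -0.43, -0.06 and 0.06 at 10. Arrays at 0.1 and at 10 lay below the controls, and those at 1 overlapped them. The fall at 10 was 0.51 ± 0.13 (adjusted p = 0.0423) and was kept in 13 of 24 fits that left out 1 array (adjusted p up to 0.244) and under 6 of 10 other settings. The other 3 probe sets differed by -0.41, -0.39 and -0.15 and did not pass. In males at 10 the same probe set was -0.29 ± 0.13 (adjusted p = 0.115). Of the adipocyte probe sets, 15 of 23 fell in females at 10 (array means 0.30 to 0.57 at 0 and -0.51 to -0.28 at 10). Mast cell markers averaged 0.27 to 0.29 at 0 and -0.26 to -0.21 at 10 in females. The part of either in the female falls of Adam33 and Adam19 was not tested.

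Of the other ADAMs, 3 rose in males at 10. Over the whole ADAM family, 3 of 27 probe sets were higher and 1 was lower, where 7.81% and 9.64% of all probe sets were. Adam8, a protease of leukocytes, rose by 0.64 ± 0.22 on 1392754_at (adjusted p = 0.0476), from -0.36, -0.04 and -0.35 at 0 to 0.16, 0.64 and 0.36, and was 0.15 ± 0.12 on its other probe set. Adam4 and Adam6, testis-type ADAMs without an active site, rose by 0.47 ± 0.14 (adjusted p = 0.0247) and 0.45 ± 0.15 (adjusted p = 0.0471). Adam6 read -0.02, -0.07 and -0.14 at 0 and 0.02, 0.64 and 0.48 at 10, so that 1 top-dose array lay near the controls.

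The rodent Adam6 gene lies among the immunoglobulin heavy chain segments. B cell markers in the same arrays averaged -1.98, 0.06 and -1.58 at 0 and -0.06, 0.96 and 0.76 at 10, and 0 of their 10 probe sets passed in limma. Their median difference was 1.81. T cell markers averaged -1.73, 0.33 and -1.17 at 0 and -0.20, 0.76 and 0.80 at 10, with a median difference of 1.46 and 0 of 13 probe sets passing. Neutrophil markers averaged -0.31, -0.17 and 0.06 at 0 and 0.03, 0.40 and 0.05 at 10, with a median difference of 0.37 and 1 of 7 probe sets passing, lower. The median of the macrophage markers was -0.09, and 1 of 13 probe sets passed, lower. The part of these cells in the Adam6 and Adam8 values was not tested. The Adam8 call was kept in 8 of 24 fits that left out 1 array (adjusted p up to 0.197) and the Adam6 call in 7 (adjusted p up to 0.230). The Adam4 call was lost without male control replicate 1 or male replicates 10 or 11 at 10 (adjusted p up to 0.152). Of 10 other settings, 5 ended the Adam8 call (down to 0.28), 6 the Adam6 call (down to 0.19) and 4 the Adam4 call (down to 0.21).

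Adam17 (probe set 1367922_at), the sheddase for amphiregulin and TGF-alpha, had 1 probe set and did not pass in any comparison. Male values were -0.05, -0.28 and 0.06 at 0, then -0.02, -0.07 and 0.06 at 0.1, then 0.15, -0.05 and 0.03 at 1, and 0.06, 0.11 and 0.18 at 10. The top-dose group overlapped the controls. The male difference at 10 was 0.21 ± 0.09 (0.02 to 0.39, unadjusted p = 0.031, adjusted p = 0.114), which is at most a 1.31-fold rise by its interval. The female difference was 0.09 ± 0.09 (-0.10 to 0.28), and the sexes were apart by 0.12 (-0.15 to 0.38). Adam10, the other main sheddase of EGF receptor ligands, differed in males at 10 by 0.13 ± 0.24 and -0.15 ± 0.22.

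Of 16 listed genes around ADAM17 and ADAM10 (ligands and receptors they shed, the receptor of the EGF family ligands, and carriers of either protease), 5 rose and 1 fell in males at 10. By probe set, 7 of 21 were higher (33.3% against 7.81% of all) and 1 lower (4.76% against 9.64%). Areg (amphiregulin) read -2.88, -2.10 and -1.99 in males at 0, then -1.62, -0.70 and -0.69 at 0.1, then 0.69, 0.71 and 1.19 at 1, and 3.02, 3.32 and 2.75 at 10, with no overlap between any 2 doses. Its rise was 3.18 ± 0.44 at 1 (adjusted p = 0.0012) and 5.35 ± 0.44 at 10 (adjusted p = 1.0e-06), against 0.20 ± 0.44 in females at 10 (adjusted p = 0.907). The sexes differed by 5.15 ± 0.63 (adjusted p = 0.0007).

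Tgfa, which encodes the ligand TGF-alpha, rose by 1.08 ± 0.23 and 0.86 ± 0.20 on its probe sets in males at 10. Egfr, the receptor for both ligands, rose by 1.33 ± 0.14 and 1.28 ± 0.14 on 2 of 3 probe sets in males and by 0.58 ± 0.14 on 1 of 3 in females at 10. The third differed by 0.23 ± 0.12 in males (adjusted p = 0.187) and 0.21 ± 0.12 in females. Ereg, which encodes the ligand epiregulin, rose in females at 10 by 0.51 ± 0.11 (adjusted p = 0.0224) and in males by 0.41 ± 0.11 (adjusted p = 0.0158). Tspan15, a carrier of ADAM10, fell in males at 10 by 0.65 ± 0.08 (adjusted p = 5.5e-05).

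Around the members, a list of 39 other matrix genes (activators, inhibitors, collagen processing and substrates) gave 6 genes higher and 13 lower in males at 10. By probe set these were 6 of 56 higher (10.7% against 7.81% of all) and 15 lower (26.8% against 9.64%). Pcolce, which speeds the trimming of procollagen, fell by 1.11 ± 0.20, and Bmp1, the procollagen C-proteinase it assists, by 0.72 ± 0.12 on 1 of 2 probe sets, the other being -0.10 ± 0.11. Plaur, the urokinase receptor, fell by 0.95 ± 0.12 on 1 of 2 probe sets, and the other was -0.09 ± 0.09. Plau, urokinase itself, fell by 0.78 ± 0.19 on 1 of 2, and the other was -0.36 ± 0.16 (adjusted p = 0.129). Thbs2, a matrix protein that helps clear Mmp2, rose by 0.77 ± 0.16. The urokinase system forms plasmin, an activator of several MMPs including Mmp3. Plat, the other plasminogen activator, went the other way in males, from -0.23, -0.40 and -0.04 at 0 to 0.26, 0.33 and 0.31 at 10. Plasmin itself was not measured.

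At 1 µg/kg/day, 2 of the 39 rose and 3 fell in males (3.57% and 5.36% of 56 probe sets, against 1.53% and 2.1% of all). Furin, the convertase that activates Mmp11, ADAMTS proteases and membrane-type MMPs, rose by 0.51 ± 0.11 (adjusted p = 0.0192) and by 0.42 ± 0.11 at 10 (adjusted p = 0.0155). St14 (matriptase), an epithelial surface protease, rose by 0.88 ± 0.21 at 1 and Plaur fell by 0.54 ± 0.12 on 1 of 2 probe sets (the other was -0.04 ± 0.09). In females at 10, 1 of the 39 passed, Tfpi2, a serine protease inhibitor, which fell by 0.47 ± 0.08 (adjusted p = 0.0075). That was 1.79% of 56 probe sets lower, against 1.05% of all. On the probe sets that fell in males, Bmp1 (-0.82 ± 0.17) and Plaur (-0.73 ± 0.17) differed between the sexes at 10, and on the other probe set of each the sexes were apart by -0.15 ± 0.16 and -0.13 ± 0.13, which did not pass.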

How the data were processed

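RNA from abdominal mammary gland pairs was measured on 24 Affymetrix rat arrays, 8 groups of 3, grouped by the sample titles. The deposited table holds signed log values, taken here as log2 values made by the authors. The log base, summarization and normalization were not given in the sources used here, and GCOS is named without a role per the submitters' processing notes. Each probe set had 2 to 9 negative values among 12 female arrays and 3 to 9 among 12 male arrays. Values were therefore read as centred within a sex, and levels, detection and sex labels could not be checked. Centring does not show that the arrays share a scale, and their SD over probe sets ran from 0.186 to 0.485. No further normalization was applied in the main fit. The number of arrays limits the precision.

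Of 31099 probe sets, 57 controls were left out and 31042 fitted in limma 3.58.1 (R 4.3.3) with a mean for each of 8 groups (lmFit and eBayes, 16 residual and 2.95 prior degrees of freedom), with Benjamini-Hochberg adjustment over all probe sets and 0.05 as the threshold. Compared were each dose with 0 and 10 with 1 within a sex, and the male difference from 0 minus the female one at each dose. By the platform annotation 20826 probe sets had 1 gene, 436 several and 9780 none, and all 51 member genes matched RefSeq by gene number. Members, gene lists and tests were chosen with earlier results of these data known. Named were Mmp11, Adamts8, Adam17, every member gene that passed (up to 12 in each direction), the 3 smallest p where none passed, and up to 4 genes per list that passed, with Areg and Egfr. Other members, and Plat, were named for their role and chosen after their values were seen. The script was tested on simulated data.

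Alternatives were array weights, a beta-actin covariate, hepatocyte and muscle marker covariates, leaving out the 4 arrays with hepatocyte transcripts or the widest 2 arrays, quantile normalization, a filter on low SD, the mean per gene, robust variances, a fit of the groups compared alone, a replicate block, and leaving out each array.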

Additional observations from a re-analysis of the deposited data

Results flagged for a closer look

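The difference between the sexes in Timp3 on probe set 1368989_at at 10 µg/kg/day was singled out because a test of that difference passed. The male difference from 0 was -0.76, the female difference 0.03, and the male minus female value -0.79 (adjusted p = 0.0414). That value passed in 11 of 24 fits that left out 1 array and under 4 of 10 other settings. No other Timp3 probe set passed this test, and the share of members that did, 1.35%, was near the 1.28% of all probe sets. With 3 arrays in each group, no array was tested for standing apart from its group.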

How the results depend on the processing

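Counts are of the 74 members that passed. In males at 10 the count of 22 lay between 14 and 28 over all single arrays left out, and became 13 with hepatocyte and muscle covariates, 11 without the hepatocyte arrays, 14 after quantile normalization, 4 with the beta-actin covariate and 32 with array weights. Of the 22 calls, 13 held without every single array and 2, Adamts19 and Mmp28, under every alternative as well. In males at 1 the count of 5 lay between 1 and 7, and became 11 with array weights, 1 without the hepatocyte arrays, 2 without the widest 2 arrays and 3 after quantile normalization or with the mean per gene. In males at 0.1 it rose from 0 to 2 with array weights and 3 with the beta-actin covariate. Between 10 and 1 in males it rose from 0 to 3 in a fit of these groups alone or with array weights and to 2 without the widest 2 arrays, with 0 to 1 over single arrays left out.

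In females at 10 the count of 2 lay between 0 and 4, and became 9 with array weights, 4 without the widest 2 arrays or after quantile normalization, 1 with the mean per gene, and 0 in a fit of these groups alone, with hepatocyte and muscle covariates or without the hepatocyte arrays. In females at 0.1 it rose from 0 to 10 with array weights, 3 without the widest 2 arrays and 1 after quantile normalization, with 0 to 2 over single arrays left out. For the difference between sexes at 10 the count of 1 lay between 0 and 4, and became 14 with array weights (4 higher and 10 lower in males), 2 with the filter on low SD, and 0 with the beta-actin covariate, without the widest 2 arrays, after quantile normalization or with the mean per gene. At 1 it rose from 0 to 1 with array weights. The cause of these changes was not tested.

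Whether the replicate numbers shared by the sexes pair the arrays could not be settled. Over 12 numbers the correlation of deviations ran from -0.48 to 0.59, with 5 above 0.1 and 4 arrays best matched by their own number. The correlations were 0.59, 0.44 and 0.46 for the numbers at 0.1 and 0.45, 0.56 and -0.25 for those at 10. All those at 0 and 1 were negative. With 3 arrays in each group the check can neither establish nor exclude pairing. With the number as a replicate block, 1 member passed between sexes at 10, Mmp11 (1.91, adjusted p = 0.0443), and 0 at 0.1 and at 1, and the Timp3 difference did not pass (adjusted p = 0.0555).

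Some differences that were not called changed sign. Group means of Mmp11 in females were 0.09 at 0 and -0.38 at 0.1, and that difference became 0.327 with array weights. Adamts8 in males at 0.1 became -0.278 without the hepatocyte arrays, -0.113 with the beta-actin covariate and -0.0497 after quantile normalization. Adamts8 from 1 to 10 in females became 0.0142 with array weights. Its difference between sexes at 1 became -0.238 without the hepatocyte arrays and -0.120 after quantile normalization. That of Adam17 at 0.1 became -0.0414 with array weights, -0.0401 with hepatocyte and muscle covariates and -0.0142 without the widest 2 arrays.

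With single arrays left out, Adam17 ran from -0.00448 to 0.115 in females at 0.1, from -0.0924 to 0.00403 in females at 1, from -0.0133 to 0.158 in males at 0.1 and from -0.0528 to 0.119 between sexes at 0.1. Mmp11 ran from -0.139 to 0.289 in females at 1 and from -0.366 to 0.105 between 10 and 1 in males. Adamts8 ran from -0.133 to 0.146 in males at 0.1, from -0.210 to 0.163 between 10 and 1 in females and from -0.126 to 0.249 between sexes at 1.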
